A study of Mus musculus with 5 samples.

Results

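The regions described here are 731 wide β-catenin regions of CHIR99021-treated mouse embryonic stem cells. Overlapping or touching peaks of the 3 deposited peak lists were merged, which gave 33485 regions. A region was kept when it held at least 1 anti-FLAG peak and at least 1 streptavidin peak from CHIR99021-treated cells, held no peak from DMSO-treated cells, and spanned 2000 bp or more. These 731 made up 2.18% of all merged regions, and 9.21% of the 7933 regions that were called through both tags and held no DMSO peak. The other 7202 of these were shorter and are called narrow below. Members were thus chosen by peak presence in each list and by merged length, and every tag count, fold and score comes from the same peak calls, so all values are given as descriptions without a test.

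β-Catenin does not bind DNA itself. In canonical Wnt signalling it enters the nucleus once GSK3 no longer marks it for degradation, and it is brought to chromatin mainly by TCF/LEF factors. CHIR99021 inhibits GSK3 and so mimics the Wnt signal, which in mouse embryonic stem cells supports self-renewal. A wide stretch of ChIP signal can be 1 broad mound or several neighbouring sites that run together, and a single called peak can hold either.

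Cells given CHIR99021 were captured by anti-FLAG in 1 group and by streptavidin in another. They were set against cells given DMSO, the vehicle, with capture by streptavidin. All 3 came from one Ctnnb1-Biotin-3xFLAG knock-in V6.5 line, so the controls carry the tagged allele too, and the extraction text also names BirA, the enzyme that biotinylates the tag. The cells grew in serum and LIF with feeder cells from DR4 mice, and floating cells were collected as the stem cell fraction after the feeders had settled. The treatment labels give 3 µM CHIR99021, whereas the extraction text writes 3 mM, and the time is 16 hours in the protocols and 24 hours in the series text. Each group had 1 library, so no value has a replicate error.

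The depth in the table headers was 16100920 unique tags for anti-FLAG and 11934863 for streptavidin in CHIR99021-treated cells, and both were called against 1 shared input library. For the DMSO library no totals are given, and its depth is unknown. DMSO peaks were called with a fragment shift of 30 bp, against 185 bp for anti-FLAG and 214 bp for CHIR99021 streptavidin, and were short, with a median of 74 bp. The DMSO library is labelled as a streptavidin capture, and the header of its peak list names a Biotin alignment. Its run name and the name of its peak list say FLAG, and the label was followed here. A member is therefore a region without a DMSO call, and how much β-catenin lay there in DMSO-treated cells cannot be bounded.

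The strongest members carried between 206 and 481 tags in each CHIR99021 library, and their leading summits mostly coincided. Members were ranked by the sum of the ranks of their leading peaks by p score in the 2 lists. Positions are mm9 coordinates throughout. The leading member lay on chromosome 2 (167203084 to 167205506), with 335 anti-FLAG tags and 312 streptavidin tags and no DMSO peak. Its leading peaks had fold enrichments over local background of 47.96 and 59.29. The second lay on chromosome 18 (25026495 to 25029737), with 398 and 373 tags at 55.64-fold and 57.28-fold. These 2 had the smallest rank sums of the 731 members.

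The third, on chromosome 11 (5310893 to 5314334), was long in both libraries, with 470 anti-FLAG and 385 streptavidin tags. The fourth lay on chromosome 17 (10271001 to 10273482) with 361 and 306 tags, and the fifth on chromosome 18 (61193878 to 61197062) with 471 and 481 tags. The sixth, on chromosome 11 (108781022 to 108785289), had 374 anti-FLAG and 465 streptavidin tags and differed from the rest of the 10 in its summit distance. Its leading anti-FLAG and streptavidin summits were 2645 bp apart, although a second, smaller anti-FLAG peak lay at the streptavidin summit. The seventh, on chromosome 2 (71703750 to 71706969), had 379 and 325 tags, and the eighth, on chromosome 4 (142890997 to 142893777), had 334 and 335. The last of the 10 were both found on chromosome 10, with 287 and 268 tags (68495696 to 68498132) and 206 and 247 tags (120452886 to 120455030). Apart from the sixth, the leading summits of the 10 lay within 94 bp of each other, and the nearest DMSO peak of each was between 18538 and 236986 bp away.

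**Figure D1:**
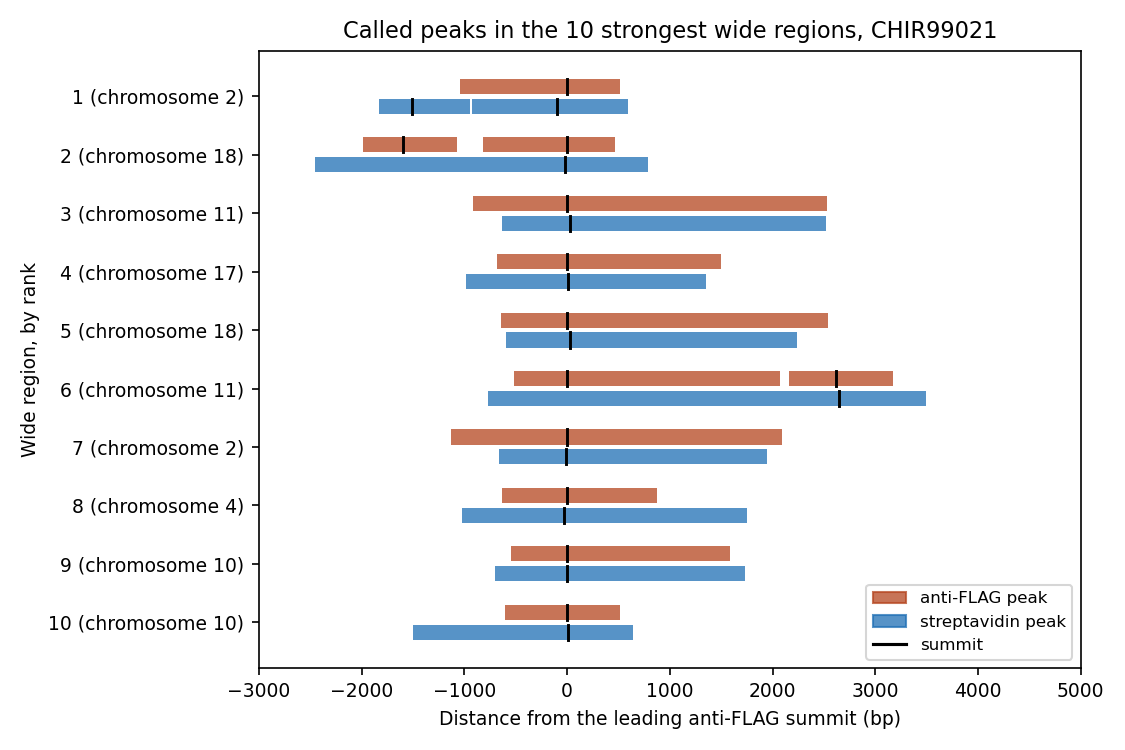
Called peaks in the 10 strongest wide regions. Bars show anti-FLAG peaks above streptavidin peaks, both from CHIR99021-treated cells, by distance in bp from the leading anti-FLAG summit, and black ticks are summits. In most regions the summits of both libraries line up while the edges do not, and the sixth region has its leading summits 2645 bp apart.

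In most members each CHIR99021 library had 1 called peak. This was so in 623 of 731 (85.2%, 95% exact binomial interval 82.4 to 87.7%), including members whose peaks are staggered or have summits far apart. More than 1 peak of a library occurred in 108 members (14.8%, interval 12.3 to 17.6%), against 69 of 7202 narrow regions (0.958%, interval 0.746 to 1.21%). In regions of 2000 bp or more with a DMSO peak it was 43 of 258 (16.7%, interval 12.3 to 21.8%). Narrow regions have less room for several peaks, and chained peaks add to the merged length, so the length rule bears on this contrast. Of the 108, 57 had several anti-FLAG peaks under 1 streptavidin peak, 38 had the reverse, and 13 had several of both. The share depended on settings, being 25.3% when peaks up to 200 bp apart were merged and 7.38% with peaks of at least 10-fold enrichment only. One member, on chromosome 11 (4661588 to 4665075), held 3 anti-FLAG peaks with 247 tags under 1 streptavidin peak of 173 tags. It was the only one with 3, and was picked out after its values were seen.

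Fewer than 1 in 4 members were long in both captures at once. A peak of 2000 bp or more was called in both libraries in 177 members (24.2%), by anti-FLAG alone in 175 (23.9%) and by streptavidin alone in 253 (34.6%). In 126 members (17.2%) neither library had such a peak, and the length came from staggered or chained peaks. Of all peaks called, 3.61% were this long by anti-FLAG and 4.73% by streptavidin. Bases called by both libraries made up a median of 66.9% of a wide region, against 76.8% of a narrow one. Staggered peaks add to the merged length and lower this percentage, so the length rule bears on the contrast. In regions of 2000 bp or more with a DMSO peak the median was 75.1%. Of those regions, 106 of 258 (41.1%) had a peak of 2000 bp or more in both libraries. Among the 177, bases called by both made up a median of 84.4%. These also had the most tags, with medians of 180 by anti-FLAG and 151 by streptavidin, against 95.5 and 76 in the 126 long in neither. This split is itself by peak length, which bears on both values. The 177 had a median length of 2810 bp and the 126 one of 2121.5 bp.

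**Figure D2:**
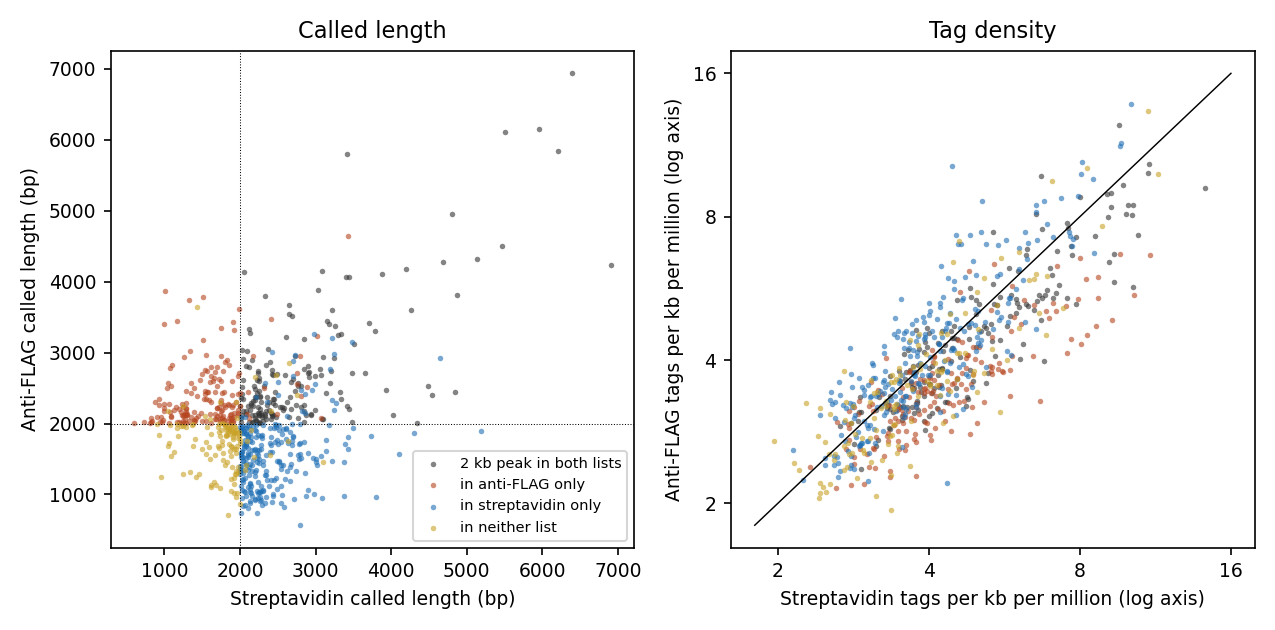
Each point is 1 of the 731 wide regions, coloured by which CHIR99021 list held a peak of 2000 bp or more. The left panel plots summed called length in bp by anti-FLAG against that by streptavidin, with dotted lines at 2000 bp. The right panel plots tags per kb of called length per 1000000 unique tags on log axes, with the line of equality. Points spread along both arms on the left and along the line on the right.

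The median member spanned 2404 bp, and 432 of 731 were shorter than 2500 bp. Lengths of 2500 to under 3000 bp occurred in 171 members, 3000 to under 4000 bp in 100, and 4000 bp or more in 28. The longest lay on chromosome 9 (61213655 to 61221202), spanning 7548 bp with 374 anti-FLAG and 363 streptavidin tags. Its fold enrichments were only 5.56 and 6.47, and its leading summits were 3292 bp apart, the widest separation of all members. The next, on chromosome 8 (87182825 to 87189728), had 260 and 303 tags at 4.83-fold and 3.60-fold. That on chromosome 5 (123583275 to 123589674) had 413 and 396 tags at 7.55-fold and 11.38-fold. Others were found on chromosome 8 (35867132 to 35873431) with 326 and 167 tags, and on chromosome 11 (62415692 to 62421988) with 119 and 192 tags. Length did not go with fold enrichment: over the 731 members Spearman's rho between them was -0.00 for anti-FLAG and 0.00 for streptavidin, a description only.

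The 13 members with several peaks of both libraries held 2 of each. The longest lay on chromosome 11 (3188261 to 3193900) and had 228 anti-FLAG and 249 streptavidin tags. The next in length had more, with 374 and 310 tags on chromosome 18 (38788022 to 38793073) and 416 and 419 on chromosome 2 (70309648 to 70314591). Chromosome 4 held the other named ones, with 442 and 337 tags (118743549 to 118748453) and 177 and 241 tags (140837214 to 140841945). Chained members had median folds of 10.77 by anti-FLAG and 11.2 by streptavidin, against 7.91 and 8.69 in members of 1 peak each. These are folds of the leading peak, which in a chained member is picked from several peaks of at least 1 library.

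Wide regions had a somewhat higher tag density than narrow ones but a lower fold enrichment. Median tag counts were 122 by anti-FLAG and 104 by streptavidin in wide regions, against 48 and 40 in narrow regions. Members were chosen by length, which bears on these counts. Median called lengths were 2028 bp by anti-FLAG and 2121 bp by streptavidin in wide regions, against 919 and 977 bp in narrow regions. Per kb of called peak the medians were 60.1 and 48.0 tags in wide regions, and 50.3 and 39.9 tags in narrow regions. The median fold over local background ran the other way, with 8.25 and 9.05 in wide regions and 9.73 and 10.31 in narrow regions. The fold is the deposited value of the leading peak against its local background, whereas density averages over the whole called length. Both directions were the same in the 2 captures, which share their input. Folds under 5 in both libraries were found in 36 wide regions (4.92%, interval 3.47 to 6.75%) and in 53 narrow regions (0.736%, interval 0.552 to 0.961%). Peaks of both kinds had to pass the same p-value cutoff, which a peak of few tags passes less easily at a low fold. The cutoff and the length rule thus bear on the fold contrast, and their part was not tested.

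At the same minimum length, regions that did hold a DMSO peak were stronger. There were 258 regions of 2000 bp or more in all 3 lists. Thus 26.1% of both-tag regions of this length held a DMSO peak, against 11.3% of shorter ones. A longer region has more bases in which a DMSO peak can fall, and the part of length in this difference was not tested. Median folds were 8.25 by anti-FLAG and 9.05 by streptavidin in the 731 members, and 18.2 and 20.6 in these 258. Median densities were 60.1 and 48.0 tags per kb in the members, and 105 and 86.4 in the 258. A fold of 10 or more in both libraries was reached by 34.5% of the members (interval 31.0 to 38.0%) and by 74.4% of the 258 (interval 68.6 to 79.6%). The median length of the 258 was 2482 bp, close to the 2404 bp of the members.

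**Figure D3:**
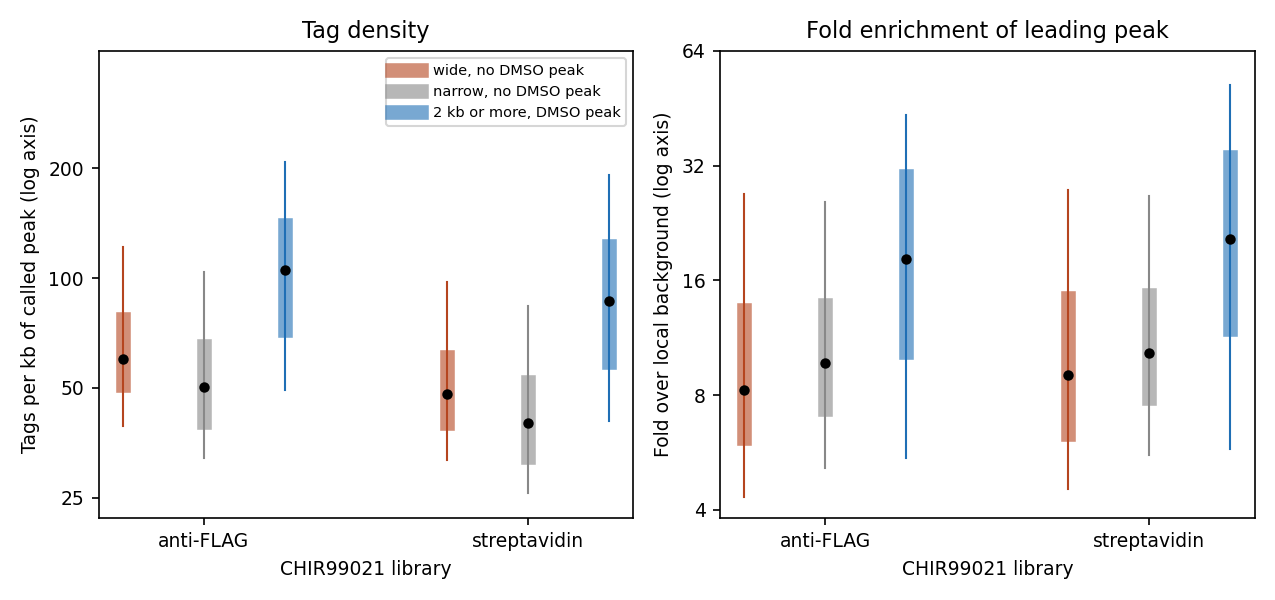
Tag density per kb of called peak (left) and fold of the leading peak over local background (right), on log axes, for each CHIR99021 library. Dots are medians, thick bars the middle 50% and thin lines the 5th to 95th percentiles over regions. Wide regions without a DMSO peak lie above narrow regions in density and below them in fold, and regions of 2000 bp or more with a DMSO peak lie above both.

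Both captures gave members nearly the same density once depth was taken into account. The anti-FLAG density per 1000000 unique tags was a median of 0.927 times that of streptavidin in wide regions and 0.926 times in narrow regions. The median called length behind it was 2028 bp by anti-FLAG and 2121 bp by streptavidin in wide regions. The ratio lay between 0.5 and 2 in 729 of 731 members and in 7150 of 7202 narrow regions. Over the members, Spearman's rho between the libraries was 0.81 for density, 0.84 for fold and 0.70 for tags (n = 731, with a shared input). For called length it was 0.07, which the choice of members bears on, since a region long in 1 library needs no length in the other. In narrow regions rho was 0.73 for density, 0.74 for fold, 0.83 for tags and 0.60 for called length. Regions of both kinds had to be called in both libraries, which bears on all these values.

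The members that differed most between captures had a short peak in 1 library and a long one in the other. The highest ratio was 2.30 (interval 1.84 to 2.88, counting error only) on chromosome 8 (107755205 to 107758293). There 156 anti-FLAG tags fell in 947 bp and 164 streptavidin tags in 3089 bp. The next lay on chromosome 8 (18805704 to 18807989) at 1.69 and chromosome 1 (39590514 to 39593102) at 1.61. The lowest ratio was 0.493 (interval 0.373 to 0.652) on chromosome 6 (72703450 to 72705577), where 112 anti-FLAG tags fell in 2118 bp and 100 streptavidin tags in 1257 bp. It was followed by chromosome 1 (93433536 to 93435729) at 0.507 and chromosome 6 (98432176 to 98434198) at 0.524. In the chromosome 1 region from 93433536, 33 anti-FLAG tags fell in 929 bp and 114 streptavidin tags in 2194 bp. There the shorter call had the lower density. The called length thus differed between libraries together with the ratio in the 2 extreme members.

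By density over both captures, 4 of the leading 5 members were also among the 10 strongest. They were the regions on chromosome 2 from 167203084, chromosome 4 from 142890997, chromosome 18 from 61193878 and chromosome 17 from 10271001. The highest anti-FLAG density, 223 tags per kb, was that on chromosome 4, and the highest streptavidin density, 169 tags per kb, that on chromosome 18 from 61193878. The fifth lay on chromosome 9 (110847636 to 110852126), with 507 anti-FLAG and 512 streptavidin tags. Despite these counts its folds were 14.33 and 18.28.

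The leading summits of the 2 captures lay a median of 48 bp apart in wide regions and 44 bp in narrow regions. In 520 members (71.1%) they were within 100 bp, fewer than the 5775 of 7202 narrow regions (80.2%). In regions of 2000 bp or more with a DMSO peak it was 210 of 258 (81.4%). In 106 members (14.5%, interval 12.0 to 17.3%) the leading summits were more than 500 bp apart. Among narrow regions, which have less room for it, this was so in 155 (2.15%, interval 1.83 to 2.51%). In regions of 2000 bp or more with a DMSO peak it was 26 of 258 (10.1%, interval 6.69 to 14.4%). Summits of wide regions sat off centre. The anti-FLAG summit lay a median of 35.4% of the way from the midpoint to the edge in wide regions, against 14.6% in narrow regions, and the streptavidin summit 35.2% against 14.2%. In regions of 2000 bp or more with a DMSO peak these medians were 29.6% for anti-FLAG and 29.2% for streptavidin.

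Wide regions occurred at every level of signal, and more often at the top. Of the strongest 10% of both-tag regions without DMSO peak, by the same rank sum, 168 of 793 were wide (21.2%, interval 18.4 to 24.2%). Of the weakest 10% it was 27 of 794 (3.40%, interval 2.25 to 4.91%). Peak length and p score come from the same tags, so this is not independent of the rule. The weakest members lay on chromosome 1 (137005017 to 137007256) with 40 anti-FLAG and 66 streptavidin tags, and on chromosome 8 (81031852 to 81034642) with 82 and 93 tags. Chromosome 10 (114819627 to 114822296) followed with 44 and 50 tags, chromosome 7 (34952427 to 34955142) with 41 and 98, and chromosome 10 (94878978 to 94880987) with 58 and 73. Their anti-FLAG folds spanned 3.33 to 6.18 and their streptavidin folds 3.48 to 6.11.

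Tag counts of the 3 regions nearest the length limit on each side follow. Just inside were chromosome 13 (21871021 to 21873020, 2000 bp) with 130 anti-FLAG and 71 streptavidin tags, and 2 of 2001 bp on chromosome 7. These had 99 and 105 tags (87274131 to 87276131) and 110 and 65 tags (140303923 to 140305923). Just outside were chromosome 12 (100566646 to 100568644, 1999 bp) with 148 and 138 tags and 2 of 1996 bp. Those were chromosome 4 (53351217 to 53353212) with 149 and 129 tags and chromosome 19 (57440369 to 57442364) with 57 and 49 tags. The first 2 outside had more tags in each library than the 3 inside, and the last had fewer.

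On chromosomes 8 and 9 a larger share of regions was wide than on any other chromosome. On chromosome 8, 66 of 416 both-tag regions without DMSO peak were wide (15.9%, interval 12.5 to 19.7%), and on chromosome 9 it was 80 of 452 (17.7%, interval 14.3 to 21.5%). On the other 17 autosomes the share ran from 4.84% to 11.3%, with 580 of 6781 in all (8.55%, interval 7.90 to 9.24%). Chromosome X had 5 of 284 (1.76%, interval 0.574 to 4.06%), and chromosome Y had no both-tag region. The narrow regions were not denser there, with 2.72 and 3.08 per Mb on chromosomes 8 and 9, within the 2.28 to 3.38 per Mb of the other autosomes.

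The single peak lists had more long peaks there too. Of all anti-FLAG peaks, 6.90% on chromosome 8 and 7.30% on chromosome 9 were 2000 bp or longer, against 2.47 to 4.53% on the other autosomes. Of streptavidin peaks it was 10.2% and 9.86%, against 2.42 to 5.83%. Both used the same input library. Among regions of all 3 lists, 28.8% on chromosome 8 and 34.3% on chromosome 9 were 2000 bp or longer, against 11.1 to 30.6% on the other autosomes, a range that holds the value of chromosome 8.

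Wide regions of chromosomes 8 and 9 had medians of 65.8 anti-FLAG and 52.4 streptavidin tags per kb, against 59.1 and 47.0 on the other autosomes. Single other autosomes spanned 54.7 to 67.8 and 43.7 to 56.2 tags per kb, which holds the values of both chromosomes. The median folds of wide regions were 6.72 by anti-FLAG and 7.68 by streptavidin on chromosome 8 and 7.81 and 9.82 on chromosome 9, against ranges of 7.36 to 15.38 and 6.66 to 17.53 on single other autosomes. The anti-FLAG value of chromosome 8 alone lay outside. Narrow regions of chromosomes 8 and 9 together differed from those of the other autosomes in the same measures, with 55.6 and 43.2 tags per kb against 49.9 and 39.6, and folds of 8.79 and 9.54 against 9.75 and 10.3. DMSO peaks numbered 10.4 and 10.6 per Mb on chromosomes 8 and 9, 4.05 to 6.27 on the other autosomes and 0.720 on chromosome X. The part of this chromosome-wide shift in the wide share was not tested.

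**Figure D4:**
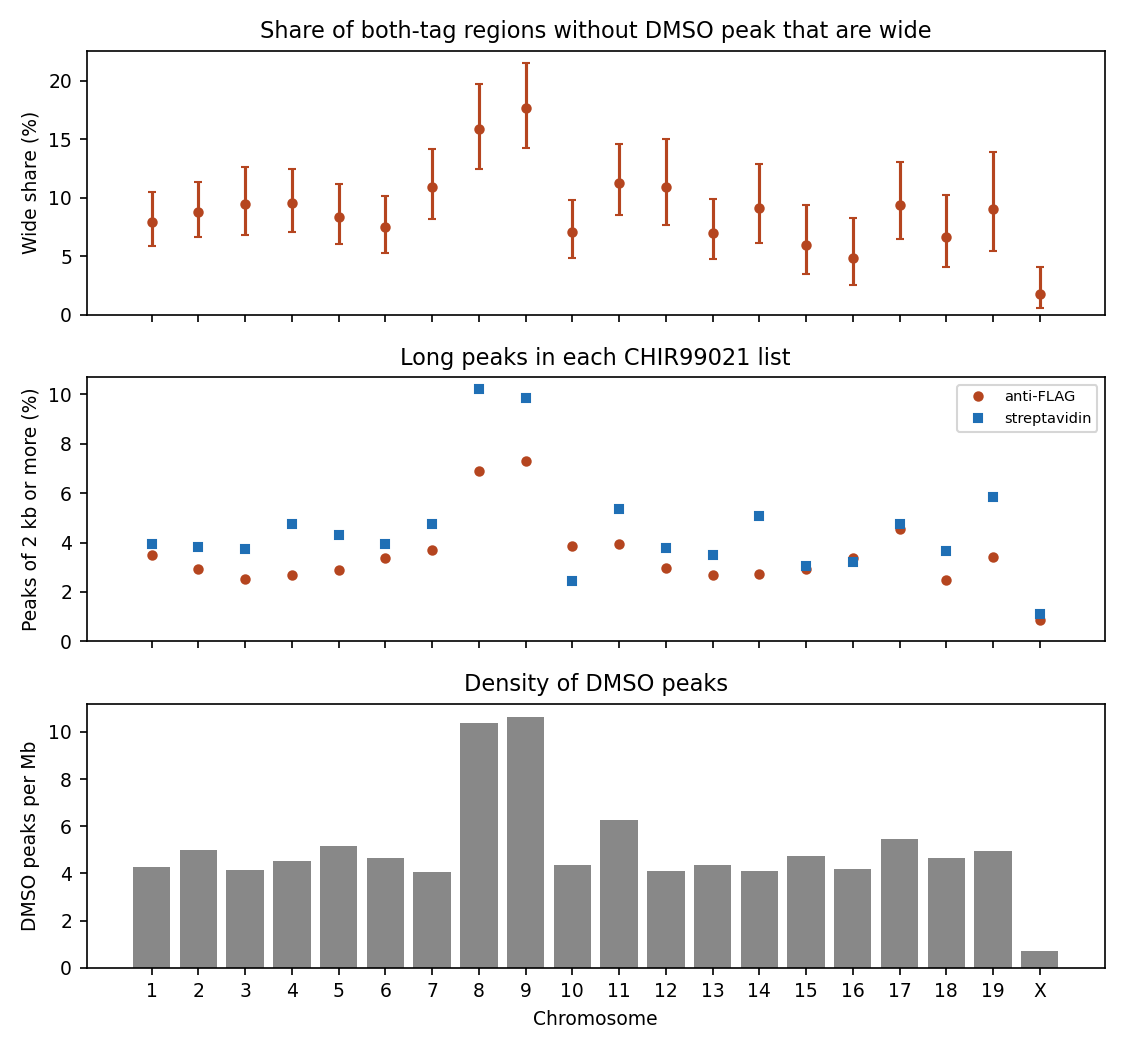
Per chromosome, the share of both-tag regions without DMSO peak that are wide, in percent with 95% exact binomial intervals (top), the percentage of peaks of 2000 bp or more in each CHIR99021 list (middle), and DMSO peaks per Mb (bottom). Chromosome Y, with no both-tag region, is left out. Chromosomes 8 and 9 stand above the rest in all panels and chromosome X below.

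The 5 members of chromosome X included 2 neighbours (11861800 to 11863803 and 11863849 to 11866526), the first with 96 anti-FLAG and 31 streptavidin tags and the second with 220 and 201. The others lay at 50097596 to 50100540 with 170 and 116 tags, 55291016 to 55293697 with 94 and 134, and 132507737 to 132510031 with 115 and 111. All 5 were named for being the only ones there. Their folds ran from 8.78 to 33.44.

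Although no member held a DMSO peak, members lay closer to one than narrow regions did. A DMSO peak was within 5 kb of the edge of 93 wide regions (12.7%, interval 10.4 to 15.4%) and of 569 narrow regions (7.90%, interval 7.29 to 8.55%). Over both together it was 8.34%. The median distance was 28619 bp for wide regions and 58800 bp for narrow regions. Without chromosomes 8 and 9, where DMSO peaks are dense, the shares within 5 kb were 11.1% of wide and 7.38% of narrow regions. On those chromosomes they were 19.2% and 12.6%. With only DMSO peaks of at least 10 tags considered, 2.49% of the then 844 wide regions had one within 5 kb. The share of narrow regions was not computed under this setting, so the contrast is not known there.

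The DMSO peaks nearest to these 93 members held 6 to 44 tags, with a median of 7. Of them, 38 (40.9%) held 6 tags, the fewest of any DMSO peak, against 71.3% of all 12734 DMSO peaks, and 16 held 10 or more. The closest lay 11 bp from the member on chromosome 9 (42665001 to 42667274), with 6 DMSO tags, next to 101 anti-FLAG and 75 streptavidin tags. Next was chromosome 8 (12501693 to 12505024), which had 242 and 202 tags and a DMSO peak of 8 tags 36 bp away. The others were chromosome 15 (81352042 to 81354392) at 179 bp, chromosome 5 (148115121 to 148119466) at 185 bp and chromosome 7 (13511936 to 13514053) at 198 bp. That on chromosome 5 was a strong site, with 315 and 347 tags at 32.4-fold and 39.9-fold, and its DMSO neighbour had 6 tags. Within 1 kb only 2 of 20 neighbours reached 10 tags, on chromosome 7 (22 tags, next to the region from 140303923) and chromosome 8 (13 tags, next to the region from 37610159).

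**Figure D5:**
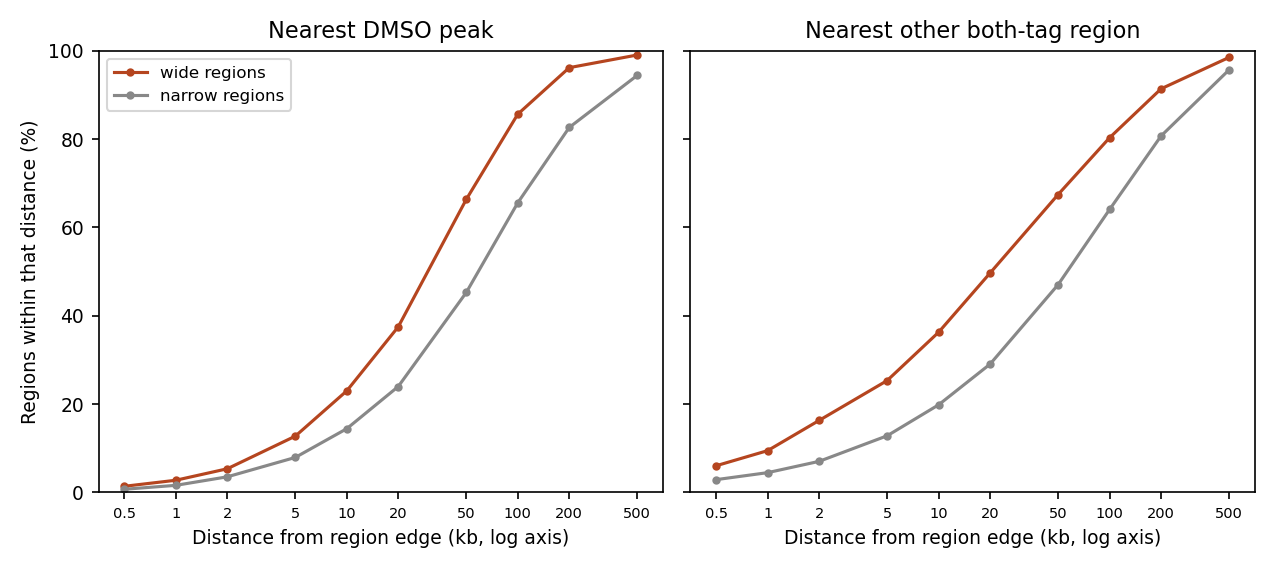
Cumulative percentage of regions with a DMSO peak (left) or another both-tag region (right) within a given distance of their edge, in kb on a log axis. The curves of wide regions lie above those of narrow regions at each distance plotted, with 12.7% against 7.90% for a DMSO peak within 5 kb and 36.3% against 19.8% for a both-tag region within 10 kb.

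Other β-catenin regions lay nearer to wide than to narrow regions. Another region called through both tags lay within 10 kb of 265 members (36.3%, interval 32.8 to 39.9%) and of 1427 narrow regions (19.8%, interval 18.9 to 20.8%), and over both together it was 21.3%. In regions of 2000 bp or more with a DMSO peak it was 89 of 258 (34.5%, interval 28.7 to 40.6%), close to the share of the members. With peaks of at least 10-fold enrichment only, which leaves fewer regions, it was 21.3% of 244 members. The share of narrow regions was not computed under this setting, so the contrast is not known there. Within 1 kb the shares were 9.44% of wide and 4.46% of narrow regions. Regions of only 1 CHIR99021 list were near as well, within 10 kb of 29.8% of wide and 19.7% of narrow regions. Without chromosomes 8 and 9 such a both-tag neighbour was found for 225 of 585 wide and 1295 of 6480 narrow regions.

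Another member lay within 10 kb of 89 of the 731 (12.2%). They formed 43 pairs and 1 group of 3. The group of 3 lay on chromosome 14 (61623073 to 61643383) with 451 anti-FLAG and 447 streptavidin tags in all. The pair of most anti-FLAG tags lay on chromosome 9 (110847636 to 110858562), with 737 and 805 tags, and includes the dense region named above. On chromosome 11 the third strongest member was paired with another 301 bp away, giving 554 and 475 tags (5310893 to 5317529).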

How the data were processed

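The authors deposited, per sample, a peak table made with MACS from ELAND-format alignments of 1 ChIP library against 1 input library, per the file headers. No MACS version is named in the sources read, and the submitters' processing notes name mm9 as the build. Per the file headers, each row has a tag count, a p score (10 times −log10 of the p-value, cutoff 1.00e-05), a fold ratio against local background, and an FDR (false discovery rate) in percent. The deposited counts, scores and ratios are single-peak values of lists called at different depths and shifts, so levels were set side by side only within a list or per 1000000 unique tags.

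From these, peaks were merged, classed and described in Python 3.11.15 with numpy 2.4.6, pandas 2.3.3 and scipy 1.17.1. Tags are summed over a region's peaks of a library, and the peak of highest p score leads. Distances run from region edges. Intervals are 95% exact binomial ones over regions, or exact intervals for a ratio of 2 counts, and cover counting error only. The merging was tested on simulated lists. Members and rules were chosen with earlier results of these data known. Named regions are the 10 strongest, 5 longest, 5 densest, 3 of highest and 3 of lowest ratio, 5 of most peaks, 5 weakest, 3 on either side of the limit and 5 nearest a DMSO peak. Exceptions are marked.

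On 10 chromosomes peaks reach past the final gene of the GRCm38 tables, which are of another build, so no gene, motif or sequence was assigned. Work planned on location, on genes of chosen lists and on motifs was therefore left out.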

Additional observations from a re-analysis of the deposited data

How the results depend on the processing

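Of 79 alternative values, 53 were inside the main value's interval, or within 1.5 times the main count, and 26 were not. The alternatives without chromosomes 8 and 9 and those for the share of wide regions on these chromosomes were added after seeing the data. At a minimum length of 1500 bp there were 1779 members with a median length of 1894 bp. Of these 8.77% held more than 1 peak of a library, 31.0% had another both-tag region within 10 kb, and on chromosomes 8 and 9 35.4% of both-tag regions without DMSO peak were wide. At 3000 bp there were 128 members, with a median length of 3449 bp, a density ratio of 0.955, 27.3% with more than 1 peak, 40.6% with a neighbour, and 4.49% wide on chromosomes 8 and 9. CHIR99021 peaks of p score at least 100 left 462 members, with summits 37 bp apart, 8.23% with more than 1 peak, 26.8% with a neighbour and 21.6% wide on chromosomes 8 and 9. Fold enrichment of at least 10 left 244 members, with summits 29.5 bp apart, 7.38% with more than 1 peak and 21.3% with a neighbour. Fewer peaks enter at these limits. An FDR of at most 1% gave 9.27%, 30.8% and 20.1% for more than 1 peak, a neighbour and wide on chromosomes 8 and 9. This limit does not keep the strongest peaks. The leading anti-FLAG peaks of the 10 strongest members had FDRs of 1.53 to 2.88% and were left out by it. Neighbour shares of narrow regions were not computed at these p score, fold and FDR limits. Merging peaks up to 200 bp apart gave 25.3% with more than 1 peak. With DMSO peaks of at least 10 tags only, there were 844 members and 2.49% had such a peak within 5 kb, since fewer DMSO peaks enter. With 50% reciprocal overlap, 14.1% were wide on chromosomes 8 and 9. In each of the 10 settings run on all chromosomes the wide share on chromosomes 8 and 9 exceeded that on the other autosomes, by 1.65 to 3.42 times. No paired analysis was possible because there was 1 library per group. Every statement on a missing DMSO peak is limited by the unknown DMSO depth. Genomic location and motifs were not run under other windows or lists either, as no mm9 genome was used here.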
